A study of Mus musculus with 4 samples.

Results

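The 36 genes described here encode the steps from glucose uptake to lactate, the entry of pyruvate into mitochondria, and the pentose phosphate pathway. They were chosen by gene name as the array annotation gives it, and 64 of the 41174 gene probes of the array carry one of these names. Of these probes 60 were tested (the others, too dim, name Gpi1, Hk1, Slc2a3 and Tkt), and all 36 genes had at least 1 tested probe among the 18970 genes tested. The samples were an induced pluripotent stem (iPS) cell clone, mouse embryonic fibroblasts (MEFs) and the mouse embryonic stem (ES) cell line CGR8.8. iPS cells are body cells turned back to a pluripotent state. Here they come from 1 clone, collected 30 days after transduction, and the labels used name neither the transduced factors nor the strain. The MEFs had gone through several passages. Leukemia inhibitory factor (LIF) was used at 1000 IU/ml to keep the ES and iPS cultures undifferentiated. Each of 4 arrays of 2 colours held 1 µg of ES RNA in green (Cy3) and, in red (Cy5), 1 µg of iPS RNA on 2 arrays or of MEF RNA on 2 arrays.

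Glycolysis splits glucose into pyruvate in the cytosol, and several of its steps are run by isoenzymes whose genes differ in the tissues that use them. Pyruvate is then turned into lactate and exported, or enters mitochondria through the pyruvate dehydrogenase complex, which pyruvate dehydrogenase kinases switch off. The pentose phosphate pathway branches from glycolysis and supplies NADPH and the ribose of nucleotides. Pluripotent cells are known for high rates of glycolysis even with oxygen present, and reprogramming of fibroblasts is known to involve a shift of metabolism in that direction.

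Every value below is a log2 ratio of red over green or a difference of such ratios, so 1 stands for a 2-fold change. Errors are standard errors (SE) of the limma fit with n = 2 arrays a group. A gene is said to have risen or fallen (to be called) only where it changed 2-fold or more and its p, adjusted by the Benjamini-Hochberg method over all genes, was under 0.05. No member spot was saturated, and 61.0% to 63.4% of gene probes rose well above background, over both channels. Replicate arrays correlated at 0.994 (iPS) and 0.990 (MEF) across genes. Between iPS cells and MEFs the markers lay as labelled, with all 10 pluripotency markers higher in iPS cells and all 12 fibroblast markers lower. Of the fibroblast markers 8 were well above background on both iPS arrays, against all 12 in the ES channel of every array. In iPS over ES 8 of the 12 fell (median -2.29), including Col1a1, a collagen gene (-5.77), and Vim, vimentin (-3.53). The log2 of their summed normalized level was 13.40 to 13.46 on the iPS arrays and 19.87 to 19.92 on the MEF arrays, against 16.10 to 17.06 in the ES channel. Of the 10 pluripotency markers 7 rose in iPS over ES and Pou5f1 fell (-1.35). Relative to MEFs, 1 of 9 skeletal muscle markers rose and 4 fell in iPS cells, and 2 of 8 neuronal ones rose and 2 fell. In the same comparison 1 of 5 macrophage markers fell, and 3 of 5 endothelial ones rose and 2 fell. Of all genes 35.8% were called there. A lower ratio in such bulk RNA cannot tell fewer cells of a type from less RNA per cell.

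The ratios over ES cells depended on how the 2 dyes were brought to one scale. Loess, which removes a dye trend along brightness, was the main setting. With each array only centred on its median, the median ratio of all genes moved to 0.18 (iPS over ES) and 0.19 (MEF over ES). The members, many of them among the brightest probes, moved further. The 13 members with a mean log2 intensity above 14 moved up by 0.64 to 1.00 in iPS over ES and by 0.79 to 1.04 in MEF over ES. The difference of iPS over MEF moved by -0.22 to 0.07 over all 36. The comparison of iPS cells with MEFs is therefore the one in which the choice of dye scaling mattered least, and each section leads with it. Where centring takes away a member's call against ES cells, the centred value is given beside it. The members' calls over ES cells that centring adds are given together. For markers and genes of the further lists only loess ratios are given, so their ratios over ES cells carry the same limit.

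**Figure D1:**
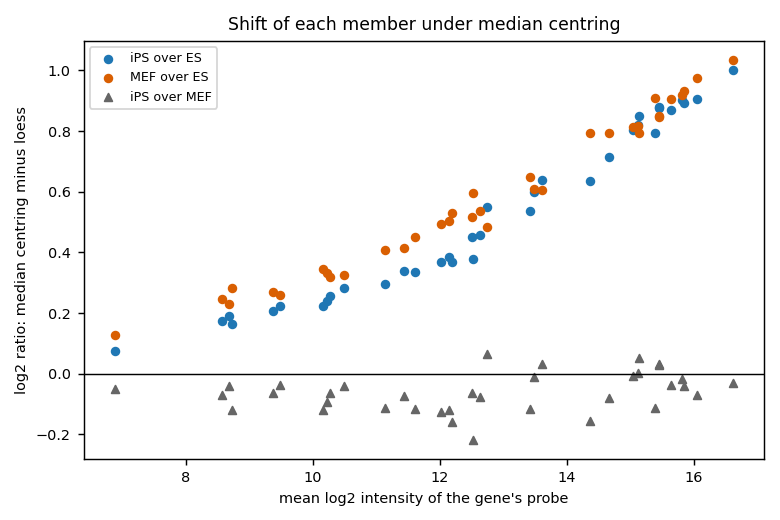
Each point is 1 of the 36 members; the x axis is the mean log2 intensity of its probe and the y axis the log2 ratio under median centring minus that under loess. The shift of the ratios over ES cells grows with brightness in both groups, up to 1.00 (iPS) and 1.04 (MEF), while iPS over MEF stays between -0.22 and 0.07.

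Between iPS cells and MEFs, 16 of the 36 genes were called. In iPS cells 7 rose (Slc2a1, Slc2a3, Hk2, Pfkp, Slc16a1, Pdk1 and Tkt) and 9 fell (Pfkfb3, Pfkfb4, Tpi1, Pgk1, Eno1, Eno2, Eno3, Ldha and Pdk4). That is 44.4% of the members, beside 35.8% of all genes tested, of which 16.9% rose and 18.9% fell. The median over the 36 members was -0.16, beside 0.03 over all genes. The risen genes belong to uptake, the phosphorylations of hexose, lactate transport, the control of pyruvate dehydrogenase (Pdk1) and the non-oxidative pentose branch. These functions also held members that fell (Pfkfb3, Pfkfb4 and Pdk4) or were lower but not called (Hk1, -0.86, Pfkl, -0.87, and Slc16a3, -0.99). Of the 9 fallen ones 6 belong to the reactions from triose phosphate to lactate, where Gapdh, Pgam1, Pgam2, Pkm2 and Ldhb were not called.

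Against ES cells, 11 members were called in iPS cells (30.6%, beside 21% of all genes) and 13 in MEFs (36.1%, beside 27.6%). In iPS cells 3 rose (Hk1, Pfkp and Rpia) and 8 fell, beside 9.08% and 11.9% of all genes. In MEFs 7 rose (Hk1, Pfkp, Aldoa, Eno2, Ldha, Pdk4 and Rpia) and 6 fell (Slc2a1, Slc2a3, Pfkfb3, Ldhb, Slc16a1 and Pdhb), beside 13.8% each way. The medians of the members were 0.04 (iPS over ES) and 0.42 (MEF over ES), beside 0.01 and -0.01 over all genes. Both ratios share the ES RNA as their base. ES RNA was green on every array, so a dye effect particular to a probe enters both ratios and neither scaling removes it. Such an effect cancels in iPS over MEF. Calls of the same direction in both groups (Hk1, Pfkp and Rpia up, Slc2a1, Slc2a3 and Pfkfb3 down) cannot be told apart from it. With median centring 14 members rose and 5 fell in iPS over ES, and 16 rose and 4 fell in MEF over ES, so the balance of rises and falls over ES cells is not settled by these arrays. With the background model fitted over all spots, marked ones included, 9 members of MEF over ES still lay past 2-fold but 0 were called by limma (15 of 36 at an unadjusted p under 0.05). That setting left 8 calls in iPS over ES and 7 in iPS over MEF. The latter were 1 rise and 6 falls, beside 7 rises and 9 falls in the main setting, so most rises there lost their call. With loess no comparison gave a call for 14 members, Gapdh among them.

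The calls over ES cells that median centring added were all rises. In iPS over ES they were Taldo1 (1.61), Hk2 (1.46), Tkt (1.30), Aldoa (1.26), Gpi1 (1.22), Slc16a1 (1.18), Pgd (1.11), Pfkm (1.06), Pdk1 (1.05), Ldha (1.04) and Pgam1 (1.04). In MEF over ES they were Pgk1 (1.79), Pgam1 (1.68), Tpi1 (1.53), Eno3 (1.36), Gpi1 (1.33), Pgd (1.29), Pfkfb4 (1.20), G6pdx (1.13) and Pfkm (1.07). With these, Slc16a1 and Eno3 joined Eno2 among the members called in opposite directions over ES cells. With loess 8 members fell in iPS over ES (Slc2a1, Slc2a3, Pfkfb3, Tpi1, Eno1, Eno2, Eno3 and Slc16a3), beside 8 of the 12 fibroblast markers. In MEFs over ES, Slc2a3 (-2.57), Slc2a1 (-2.49), Pfkfb3 (-2.05), Slc16a3 (-0.74) and Eno1 (-0.39) were negative too. Eno2 (1.16), Eno3 (0.77) and Tpi1 (0.73) were positive there. The part of fibroblast-type RNA of the ES sample in the 8 falls was not tested.

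**Figure D2:**
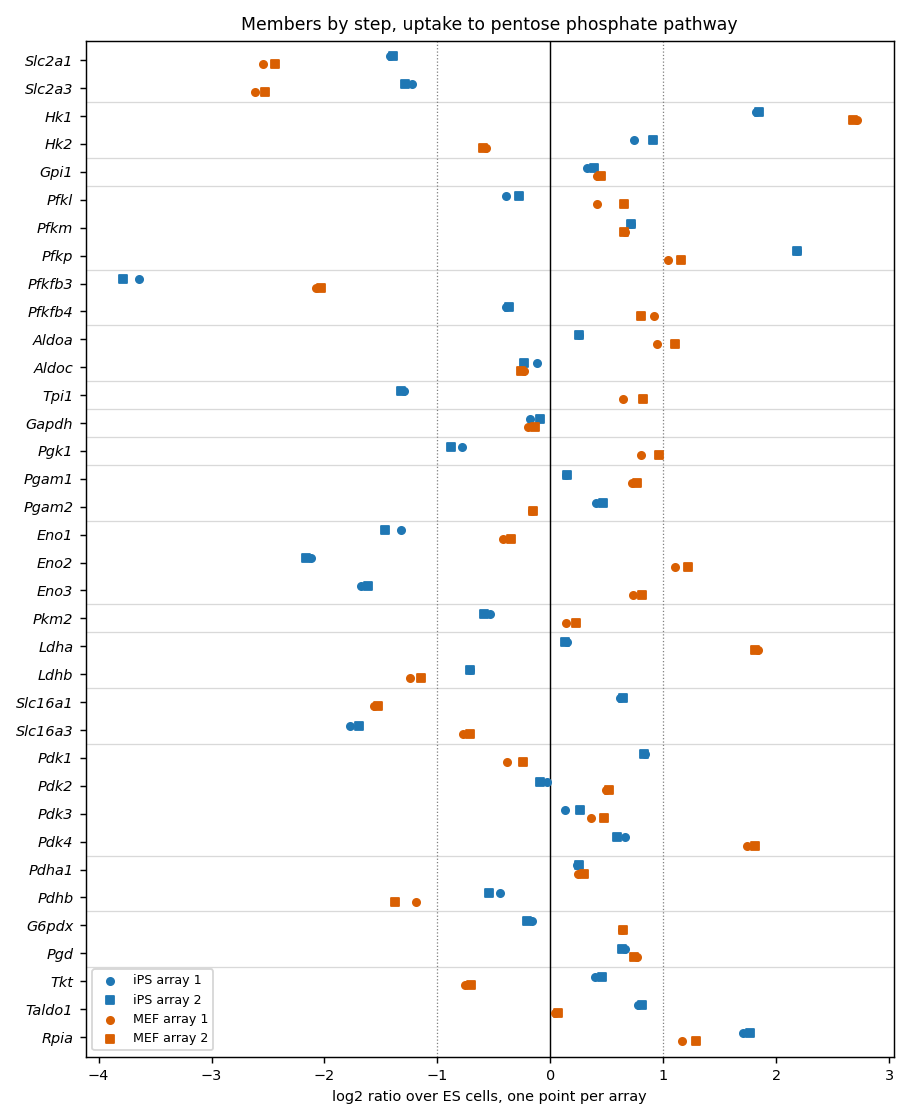
Log2 ratio over ES cells on every array for the 36 members, ordered from glucose uptake (top) to the pentose phosphate pathway, with iPS arrays in blue above MEF arrays in orange. Dotted lines mark a 2-fold change; the replicate points lie close together, and the widest separation between the groups is that of Eno2.

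**Figure D3:**
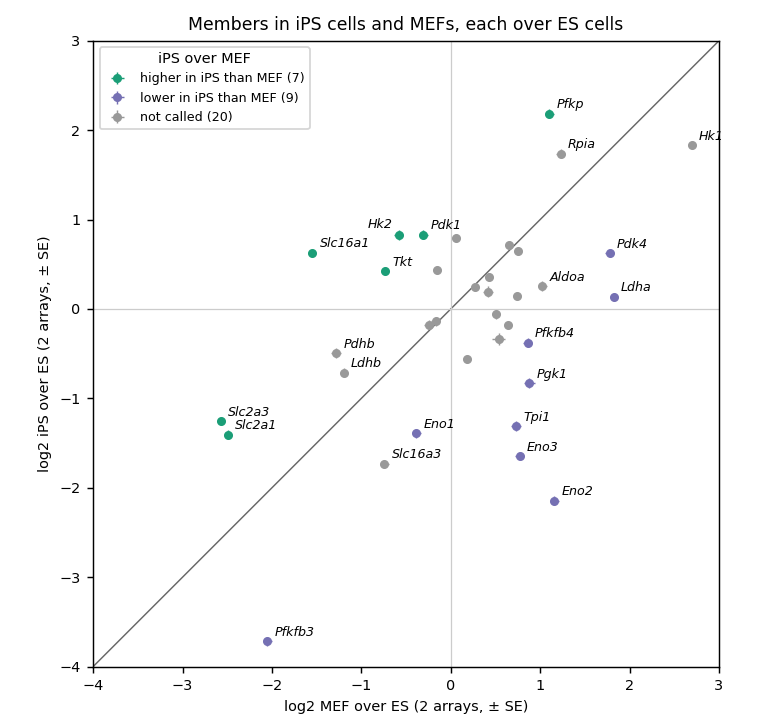
Mean log2 ratio over ES cells of each member in iPS cells (y axis) against MEFs (x axis), with SE bars (n = 2 arrays each) that are mostly smaller than the points, coloured by the call of iPS over MEF. Slc16a1 lies farthest above the line of equal ratios and Eno2 farthest below it.

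Both glucose transporters were lower in iPS cells and in MEFs than in ES cells, and less so in iPS cells. Slc2a1 encodes GLUT1, the widespread basal glucose transporter, and stood at -1.42 and -1.39 on the iPS arrays, against -2.54 and -2.44 on the MEF arrays. Slc2a3 encodes GLUT3, a high-affinity transporter, and stood at -1.22 and -1.29 on the iPS arrays, against -2.61 and -2.53 on the MEF arrays. The groups did not overlap for either gene, and the share of all single genes for which this holds is not given here. The rise of iPS over MEF was 1.08 ± 0.068 for Slc2a1 (limma adjusted p = 6.95e-06) and 1.31 ± 0.068 for Slc2a3 (limma adjusted p = 2.61e-06). Under median centring the falls of iPS over ES were -0.53 for Slc2a1 and -0.41 for Slc2a3, no longer called, while those of MEF over ES remained called. A second tested probe of Slc2a3, dim in MEFs, gave -0.25 in iPS cells and -0.85 in MEFs. Averaged over these probes, Slc2a3 was under 2-fold in iPS over MEF (0.96) and in iPS over ES (-0.75). A probe that the array names Slc2a3 but places on another chromosome (chr17:83362051-83362111, mm8) was too dim to be tested.

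The hexokinases, which trap glucose in the cell as glucose 6-phosphate, went apart. Hk2, the isoform of muscle and of many proliferating cells, rose in iPS cells relative to MEFs, with 0.74 and 0.91 on the iPS arrays, against -0.57 and -0.59 on the MEF arrays. Its difference of 1.41 ± 0.077 (2.65-fold, limma adjusted p = 3.45e-06) came from a positive ratio over ES cells in one group and a negative one in the other, neither called. Under median centring these ratios were 1.46 in iPS cells, past the threshold, and 0.02 in MEFs. Hk1, the broadly expressed isoform, was higher than in ES cells in both, with 1.82 and 1.84 on the iPS arrays, against 2.71 and 2.68 on the MEF arrays. Its rise over ES cells was 1.83 ± 0.044 in iPS cells (limma adjusted p = 8.56e-08) and 2.70 ± 0.044 in MEFs (limma adjusted p = 1.72e-08). The difference of Hk1 between iPS cells and MEFs, -0.86 ± 0.062, did not reach 2-fold. Within an array, Hk2 minus Hk1 was -1.08 and -0.94 in iPS cells, against -3.29 and -3.27 in MEFs, so the ratio of Hk2 to Hk1 was higher by 2.27 in iPS cells.

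Hk1 had 5 tested probes, more than any other member, and its size of change depended on the probe, which is why sequences of these probes are shown. All lie on the minus strand of chromosome 10 (mm8). Probe a covers chr10:61665344-61665403, probe b chr10:61666986-61667045 and probe c chr10:61710810-61710869, the last being the one nearest the start of the gene.
Hk1 probe a: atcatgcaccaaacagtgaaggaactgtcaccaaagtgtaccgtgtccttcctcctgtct
Hk1 probe b: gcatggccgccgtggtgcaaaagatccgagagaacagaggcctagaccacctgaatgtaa
Hk1 probe c: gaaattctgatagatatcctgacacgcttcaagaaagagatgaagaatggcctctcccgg
The probe that stands for Hk1 above covers chr10:61664525-61664584 and had a mean log2 intensity of 12.2. Probe a gave 0.99 in iPS cells and 1.89 in MEFs at an intensity of 7.71. Probe b gave 0.82 in iPS cells and 1.64 in MEFs at 7.58. Probe c, not well above background in ES cells, gave 0.19 in iPS cells and 0.20 in MEFs at 6.25. The remaining tested probe, at chr10:61665219-61665249 and an intensity of 6.85, gave 0.53 in iPS cells and 1.14 in MEFs, with -0.61 between them. The offset of 50 added to each signal draws the ratios of dim probes toward 0 by construction. Probes a and b kept the order of the groups, with iPS cells below MEFs by -0.90 and -0.82, and probe c did not separate them (-0.01). Averaged over the 5 probes, Hk1 was under 2-fold in iPS over ES (0.87).

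Gpi1, phosphoglucose isomerase, did not differ detectably between iPS cells and MEFs (-0.07, 95% confidence interval -0.23 to 0.08), with 0.32 and 0.39 on the iPS arrays, against 0.41 and 0.45 on the MEF arrays. Of the phosphofructokinases, which commit sugar to glycolysis, only the platelet isoform Pfkp was called between the groups. It stood at 2.19 and 2.18 on the iPS arrays, against 1.04 and 1.16 on the MEF arrays, a rise of 1.08 ± 0.069 (2.12-fold, limma adjusted p = 7.74e-06). Relative to ES cells Pfkp rose in iPS cells (2.18 ± 0.049, 4.54-fold) and in MEFs (1.10 ± 0.049, 2.14-fold). The liver isoform Pfkl stood at -0.39 and -0.28 on the iPS arrays, against 0.41 and 0.66 on the MEF arrays, and its difference of -0.87 ± 0.097 stayed under 2-fold. The muscle isoform Pfkm was nearly equal, with 0.72 on both iPS arrays, against 0.66 and 0.65 on the MEF arrays. Relative to Pfkl on the same array, Pfkp was higher by 2.57 and 2.46 in iPS cells, against 0.63 and 0.50 in MEFs. The other probes of Pfkp disagreed: one gave 2.06 in iPS cells and 0.26 in MEFs, the dimmest 0.46 in iPS cells and 0.55 in MEFs. Averaged over its probes, Pfkp was under 2-fold between iPS cells and MEFs (0.93) and in MEFs over ES (0.64).

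Pfkfb3 and Pfkfb4 encode bifunctional enzymes that set the level of fructose 2,6-bisphosphate, the main activator of phosphofructokinase. Pfkfb3, the isoform with the strongest kinase activity (probe at chr2:11389805-11389864, mm8), was the lowest member in iPS cells, at -3.65 and -3.79 on the iPS arrays, against -2.07 and -2.04 on the MEF arrays. That is 13.1-fold under ES cells in iPS cells (-3.72 ± 0.052, limma adjusted p = 1.52e-08), 4.15-fold under ES cells in MEFs (-2.05 ± 0.052), and -1.66 ± 0.073 between the groups. Its unprocessed red signals were 1090 and 1190 on the iPS arrays, against 4450 and 3910 on the MEF arrays, and green ES signals lay between 9290 and 10500 on all 4. The other tested probes of Pfkfb3, both near the floor, gave -1.07 and -0.84 in iPS cells, against -0.62 and -0.64 in MEFs. In iPS cells both were not well above background, which leaves bounds of at least 2.06-fold and 1.75-fold under ES cells. Neither was called in iPS over MEF or in MEF over ES, and the mean over the 3 probes was under 2-fold between the groups (-0.77). The bright probe carried a background mark on some arrays, and with such spots left out the gene stood by a dim probe and was called neither in MEFs (-0.62) nor between the groups (-0.45). Pfkfb4 stood at -0.39 and -0.36 on the iPS arrays, against 0.91 and 0.81 on the MEF arrays, a fall of -1.24 ± 0.068 in iPS cells relative to MEFs (limma adjusted p = 3.62e-06).

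At the aldolase step, which splits the hexose, neither gene was called between the groups. Aldoa, the muscle isoform that most tissues express, stood at 0.26 on both iPS arrays, against 0.95 and 1.10 on the MEF arrays, and rose in MEFs over ES (1.02 ± 0.052). That rise was just past 2-fold and was not called without MEF replicate 2 (0.95), by the mean over probes (0.79) or from the scanner's own log ratio (0.89). Its second probe, which shares 27 bases with the first, gave -0.12 in iPS cells and 0.56 in MEFs. Aldoc, the brain isoform, stood at -0.12 and -0.24 on the iPS arrays, against -0.23 and -0.26 on the MEF arrays. Tpi1, triose phosphate isomerase, fell strongly in iPS cells, with -1.30 and -1.32 on the iPS arrays, against 0.65 and 0.82 on the MEF arrays. It has no isoform among the members. The difference of -2.04 ± 0.078 was 4.12-fold (limma adjusted p = 5.98e-07). The fall of iPS over ES (-1.31 ± 0.055) shrank to -0.67 under median centring and was then not called.

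Gapdh, which oxidises glyceraldehyde phosphate and is often used as a reference transcript, stood at -0.18 and -0.10 on the iPS arrays, against -0.20 and -0.14 on the MEF arrays. The difference between the groups was 0.03 ± 0.067 (95% confidence interval -0.13 to 0.19). Its ratios over ES cells turned to 0.76 (iPS) and 0.75 (MEF) under median centring, so its level relative to ES cells is not settled. Pgk1, the first enzyme of the pathway to yield ATP, stood at -0.78 and -0.88 on the iPS arrays, against 0.80 and 0.96 on the MEF arrays. With loess the groups lay on opposite sides of ES cells and under 2-fold from them, but under median centring the ratios were -0.03 in iPS cells and 1.79 in MEFs. The difference of -1.71 ± 0.080 was a 3.27-fold fall in iPS cells (limma adjusted p = 1.58e-06). Pgam1, the phosphoglycerate mutase of most tissues, stood at 0.14 and 0.15 on the iPS arrays, against 0.72 and 0.76 on the MEF arrays. Pgam2, the muscle isoform, stood at 0.40 and 0.46 on the iPS arrays, against -0.17 and -0.15 on the MEF arrays. With loess neither mutase reached 2-fold in any comparison, while under median centring Pgam1 did over ES cells (1.04 in iPS cells and 1.68 in MEFs). Their order changed with loess: Pgam2 minus Pgam1 was 0.26 and 0.31 in iPS cells, against -0.89 and -0.92 in MEFs. Under median centring this difference was -0.41 in iPS cells, against -1.61 in MEFs, the same sign in both.

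All 3 enolase genes, whose products make phosphoenolpyruvate, were lower in iPS cells than in MEFs. Eno2, the gamma isoform known from neurons (probe at chr6:124726146-124726205, mm8), stood at -2.12 and -2.17 on the iPS arrays, against 1.10 and 1.22 on the MEF arrays. It fell in iPS cells relative to ES cells (-2.14 ± 0.049, 4.42-fold), rose in MEFs (1.16 ± 0.049, 2.23-fold), and was thus called in opposite directions, as it was under median centring (-1.98 in iPS cells and 1.44 in MEFs). The difference of -3.30 ± 0.070, a 9.87-fold fall (limma adjusted p = 5e-08), was the largest among the members. Its unprocessed red signals were 115 and 122 on the iPS arrays, against 1510 and 1280 on the MEF arrays, with green ES signals of 378 to 403. A second probe, sharing 31 bases with the first, gave -2.14 in iPS cells and 1.09 in MEFs. Eno3, the muscle isoform, stood at -1.68 and -1.61 on the iPS arrays, against 0.73 and 0.81 on the MEF arrays, a fall of -2.41 ± 0.067 (5.33-fold, limma adjusted p = 1.4e-07). Eno1, the ubiquitous isoform, stood at -1.32 and -1.46 on the iPS arrays, against -0.42 and -0.35 on the MEF arrays. Its difference of -1.01 ± 0.075 lay at the 2-fold limit and was not called without MEF replicate 2 (-0.97), without iPS replicate 2 (-0.93) or from the scanner's own log ratio (-0.88).

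The isoforms shifted unequally: Eno2 minus Eno1 was -0.80 and -0.70 in iPS cells, against 1.52 and 1.57 in MEFs. Eno3 minus Eno1 was -0.36 and -0.15 in iPS cells, against 1.15 and 1.16 in MEFs. Markers of neurons and of skeletal muscle were set beside these genes. Of 8 neuronal markers 3 fell in iPS over ES, and 1 (Map2) rose and 4 fell in MEFs over ES. Between the groups they ran from -2.61 to 2.63, with 2 higher and 2 lower in iPS cells. Of 9 muscle markers 4 fell in iPS cells relative to MEFs, including Acta1 (-5.43) and Actc1 (-5.64), and Mylpf rose (3.66). Between the groups 50% of the neuronal and 55.6% of the muscle markers were called, beside 35.8% of all genes. Of the neuronal markers 37.5% were called in iPS over ES and 62.5% in MEF over ES, beside 21% and 27.6%. The part of such cells in the enolase ratios was not tested.

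Pkm2 is the array's name for the pyruvate kinase gene Pkm, whose product forms pyruvate and ATP. Its brightest probe stood at -0.53 and -0.59 on the iPS arrays, against 0.14 and 0.23 on the MEF arrays, and the difference of -0.74 ± 0.067 was under 2-fold. Another probe, designed from another cDNA and lying upstream of the other probes on the plus strand at chr9:59470599-59470658 (mm8), behaved otherwise and is shown for that reason.
Pkm2 upstream probe: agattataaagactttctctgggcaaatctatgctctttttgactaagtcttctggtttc
It gave 1.17 and 1.19 on the iPS arrays, against 2.40 and 2.56 on the MEF arrays, and was called in all 3 comparisons, with -1.30 ± 0.077 between the groups (limma adjusted p = 3.33e-06). Its unprocessed red signals were 422 and 437 on the iPS arrays, against 1330 and 1180 on the MEF arrays. Green ES signals of this probe were 106 to 120. Unprocessed red and green are not on one scale: Gapdh, at -0.18 on iPS array 1, had 73100 in red and 39400 in green there. The array names all splice forms of the gene by 1 symbol.

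Lactate dehydrogenase changed most through Ldha, the subunit that favours making lactate. Ldha stood at 0.14 and 0.13 on the iPS arrays, against 1.83 and 1.81 on the MEF arrays. It rose in MEFs over ES (1.82 ± 0.043, 3.54-fold) and was 3.22-fold lower in iPS cells than in MEFs (-1.69 ± 0.061, limma adjusted p = 4.61e-07). A second probe gave -0.35 in iPS cells and 1.14 in MEFs, with the same call between the groups. Ldhb, the subunit that favours using lactate, stood at -0.71 on both iPS arrays, against -1.24 and -1.15 on the MEF arrays. It fell in MEFs over ES (-1.20 ± 0.047), but not under median centring (-0.39), and its difference between the groups, 0.48 ± 0.066, was under 2-fold. Within an array, Ldhb minus Ldha was -0.86 and -0.84 in iPS cells, against -3.08 and -2.96 in MEFs.

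The monocarboxylate transporters, which move lactate and pyruvate across the plasma membrane, parted more than any other of the 16 pairs compared. Slc16a1 encodes MCT1, a transporter of wide expression (probe at chr3:104786079-104786138, mm8), and stood at 0.61 and 0.65 on the iPS arrays, against -1.57 and -1.53 on the MEF arrays. Its rise of 2.18 ± 0.062 in iPS cells over MEFs (4.52-fold, limma adjusted p = 1.61e-07) was the largest rise among the members. Its other probes gave 0.81 and 0.21 in iPS cells, against -1.55 and -1.20 in MEFs, and each was called between the groups. Slc16a3 encodes MCT4, the exporter typical of highly glycolytic cells, and stood at -1.77 and -1.69 on the iPS arrays, against -0.78 and -0.71 on the MEF arrays. It fell in iPS cells over ES (-1.73 ± 0.047, 3.32-fold). Between the groups it was -0.99 ± 0.067, at the 2-fold limit, and passed it under median centring (-1.10), with normexp over all spots (-1.12), or without MEF replicate 1 (-1.02) or iPS replicate 2 (-1.03). Slc16a1 minus Slc16a3 was 2.38 and 2.34 in iPS cells, against -0.79 and -0.82 in MEFs, a difference of 3.17.

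The kinases that inactivate pyruvate dehydrogenase also changed in relation to each other. Pdk1 stood at 0.84 and 0.83 on the iPS arrays, against -0.38 and -0.24 on the MEF arrays, a rise of 1.14 ± 0.073 (limma adjusted p = 7.49e-06). A second Pdk1 probe of similar brightness gave 1.35 and 1.26 on the iPS arrays, against -1.18 and -1.14 on the MEF arrays, and was called in all 3 comparisons, in opposite directions over ES cells. Pdk4, known for induction by fasting and fat use, stood at 0.66 and 0.59 on the iPS arrays, against 1.74 and 1.81 on the MEF arrays. It rose in MEFs over ES (1.78 ± 0.048) and fell in iPS cells relative to MEFs (-1.15 ± 0.067, limma adjusted p = 4.83e-06). Pdk2 (-0.56) and Pdk3 (-0.22) were under 2-fold between the groups. Pdk1 minus Pdk4 was 0.17 and 0.24 in iPS cells, against -2.12 and -2.05 in MEFs.

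The subunits of pyruvate dehydrogenase itself did not move together. Pdha1, the X-linked alpha subunit, stood at 0.24 and 0.25 on the iPS arrays, against 0.25 and 0.30 on the MEF arrays. Pdhb, the beta subunit, stood at -0.44 and -0.54 on the iPS arrays, against -1.19 and -1.38 on the MEF arrays. Pdhb fell in MEFs over ES on both of its probes (-1.28 ± 0.061 and -1.52 ± 0.052), though the call of the first was lost under median centring (-0.68). Between the groups Pdhb was at 0.79 ± 0.084, under 2-fold.

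**Figure D4:**
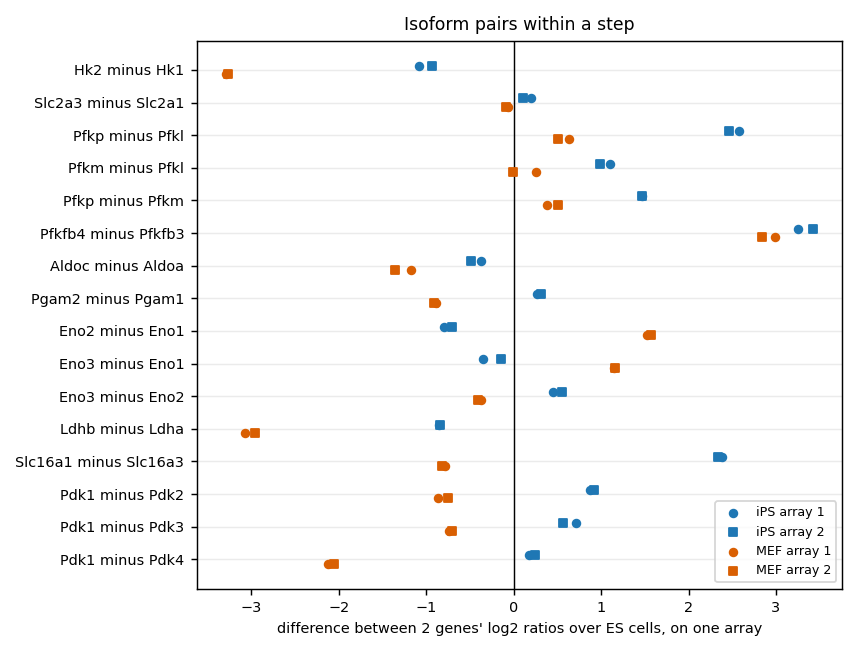
For 16 pairs of genes of the same step or function, the difference of their log2 ratios over ES cells on each array (x axis), iPS arrays in blue above MEF arrays in orange. The widest gap between the groups, 3.17, is that of Slc16a1 minus Slc16a3, and replicate points lie within 0.26 of each other.

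In all 16 pairs the values of the iPS and MEF arrays did not overlap, beside 92.4% of all pairs of tested genes, so this sets the pairs little apart. In 9 of the 16 the difference had opposite signs on every array of the groups, beside 44.2% of all pairs. By the means under median centring 8 pairs had opposite signs, Pgam2 minus Pgam1 being the one lost. These differences set ratios against ratios on the same array and carry no test.

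Of the 5 pentose phosphate genes, Tkt was called between iPS cells and MEFs and the others were not. In the oxidative branch, which makes NADPH, G6pdx (glucose 6-phosphate dehydrogenase) stood at -0.17 and -0.20 on the iPS arrays, against 0.64 on both MEF arrays. Pgd, the next dehydrogenase, stood at 0.66 and 0.64 on the iPS arrays, against 0.77 and 0.74 on the MEF arrays. With loess neither was called in any comparison, while under median centring Pgd passed over ES cells in both groups (1.11 in iPS cells and 1.29 in MEFs) and G6pdx in MEFs (1.13). Between the groups they stood at -0.83 ± 0.062 (G6pdx) and -0.11 ± 0.061 (Pgd). In the non-oxidative branch, which connects pentoses with glycolysis, the differences of iPS over MEF were positive for all 3 members. Tkt, transketolase, stood at 0.39 and 0.46 on the iPS arrays, against -0.76 and -0.71 on the MEF arrays, and rose by 1.16 ± 0.065 (2.23-fold, limma adjusted p = 3.89e-06). A dimmer second probe gave 0.56 and was not called, and the mean of both was 0.86, under 2-fold. Taldo1, transaldolase, stood at 0.78 and 0.81 on the iPS arrays, against 0.04 and 0.07 on the MEF arrays, a difference of 0.74 ± 0.062 under 2-fold. Rpia, ribose 5-phosphate isomerase, stood at 1.71 and 1.76 on the iPS arrays, against 1.17 and 1.29 on the MEF arrays. It rose over ES cells in iPS cells (1.73 ± 0.051, 3.33-fold) and in MEFs (1.23 ± 0.051, 2.34-fold), with 0.51 ± 0.072 between them.

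**Figure D5:**
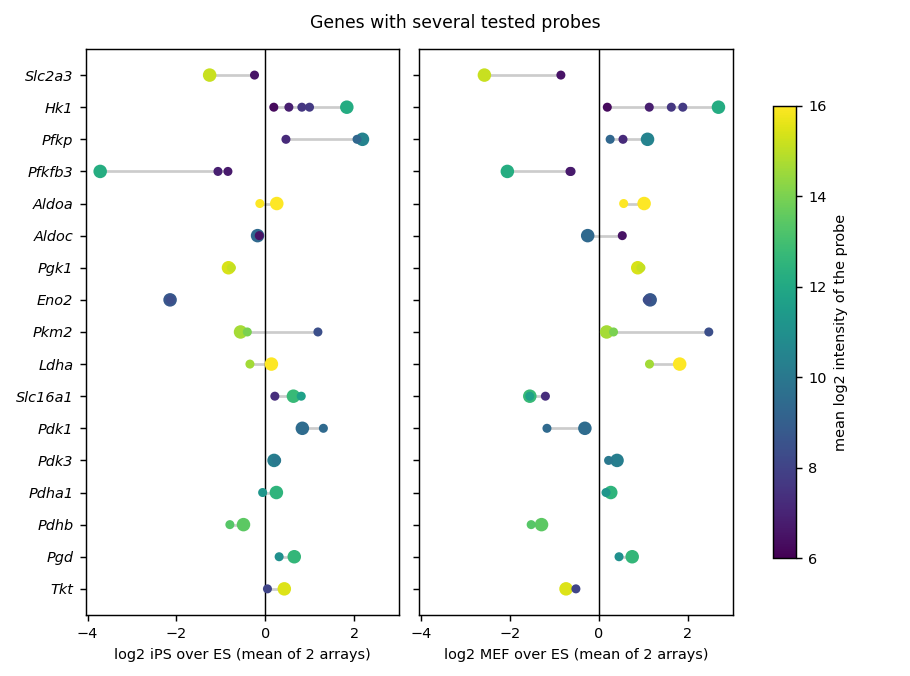
Mean log2 ratio over ES cells of each tested probe for the 17 members with several, in iPS cells (left) and MEFs (right); the large point is the probe that stands for the gene and the colour is mean log2 intensity. Eno2, Pgk1 and Pdhb probes lie together, and those of Hk1, Pfkfb3 and Pkm2 spread widely.

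Among the 17 members with several tested probes, probes differed in call for 5 in iPS over MEF, 6 in iPS over ES and 7 in MEF over ES, and no gene had probes called in opposite directions in 1 comparison. The 5 between iPS cells and MEFs were Pfkfb3, Pfkp, Pkm2, Slc2a3 and Tkt. Probe pairs of Eno2, Aldoa and Pgk1 share 27 to 38 bases, so their agreement counts as 1 measurement.

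The stretches before the starts of Eno2 and Slc16a1 are shown because these genes lie at the ends of iPS over MEF. They are 250 bases each, from RefSeq on GRCm38.p6, at chr6:124769674-124769923 (minus strand) and chr3:104638414-104638663 (plus strand). Capitals mark the words ACGTG and GCGTG on either strand, the core of sites bound by hypoxia-inducible factor (HIF); ACGTG is also held within CACGTG, the E-box known from MYC.
Eno2 upstream: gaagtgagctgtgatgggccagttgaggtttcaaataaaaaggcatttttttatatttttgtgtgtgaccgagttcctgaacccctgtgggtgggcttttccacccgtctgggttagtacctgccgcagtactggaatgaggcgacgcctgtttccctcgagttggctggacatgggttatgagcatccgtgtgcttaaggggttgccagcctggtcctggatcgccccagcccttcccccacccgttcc
Slc16a1 upstream: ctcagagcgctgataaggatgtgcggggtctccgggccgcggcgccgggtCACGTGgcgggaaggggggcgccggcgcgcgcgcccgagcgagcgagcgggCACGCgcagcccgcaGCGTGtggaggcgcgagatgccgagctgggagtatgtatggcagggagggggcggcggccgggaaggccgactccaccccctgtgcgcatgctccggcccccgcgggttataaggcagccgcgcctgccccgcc
Eno2 has none of these words in the window, and Slc16a1 has 1 CACGTG and 2 GCGTG. RefSeq starts were found for 35 of the 36 members, 50 starts in all (the missing one is Slc2a3). GCGTG lay in 58.0% of the members' windows, beside 28.2% of 32851 windows over all genes, ACGTG in 34.0%, beside 16.6%, and CACGTG in 10%, beside 6.0%. The median share of G and C was 60% in the members' windows, beside 52.4%. Several members have more than 1 start, and nothing about binding was measured.

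Of 62 other genes of the same pathways, 54 were tested. Over ES cells 31.5% of them were called in iPS cells and 31.5% in MEFs, beside 21% and 27.6% of all genes. Between iPS cells and MEFs 8 rose and 10 fell, 33.3% beside the 35.8% of all genes. Pgm5, a relative of phosphoglucomutase found at cell adhesions, fell by 5.11 on the log2 scale (-5.11 ± 0.065). The transporter gene Slc2a6 stood at -2.96 ± 0.076, from a probe well above background on only 1 iPS array. Slc2a10 fell too, from a probe not above background in iPS cells. Ldhc, the testis lactate dehydrogenase, was at least 10.6-fold higher in iPS cells and not above background in MEFs. The gluconeogenic Fbp1 rose by 2.90 ± 0.074, and Fbp2 rose from a probe not above background in MEFs. In iPS over ES 13 rose and 4 fell, with Fbp1 (1.92), H6pd, a dehydrogenase of the endoplasmic reticulum (1.87), Fbp2 (1.73) and the glycogen phosphorylase Pygl (1.57) highest and Slc2a4, the insulin-responsive GLUT4 (-2.67), and Pck2 (-1.98) lowest. In MEFs over ES 14 rose and 3 fell, led by Pgm5 (4.56), malic enzyme Me1 (3.20), Slc2a10 (2.57), Slc2a9 (at least 5.50-fold, not above background in ES cells) and H6pd (2.46), with Ldhc at least 4.83-fold lower.

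Regulators of glycolysis were tested in 22 of 23 cases. Between iPS cells and MEFs 45.45% of them were called, beside 35.8% of all genes. Over ES cells 18.2% were called in iPS cells and 36.4% in MEFs, beside 21% and 27.6%. Between iPS cells and MEFs 6 rose, including Mycn (3.69 ± 0.089), Mlxipl, a sugar-sensing transcription factor (3.65 ± 0.079), Epas1 (HIF2 alpha, not above background in MEFs) and Trp53 (1.49 ± 0.10), and 4 fell, including Myc (-1.58 ± 0.066) and Hif1a (-1.41 ± 0.083). In iPS over ES Mlxipl (1.94) and Epas1 (1.62) rose, and Myc (-2.22) and Txnip, an inhibitor of glucose uptake (-1.59), fell. In MEFs over ES Mycn (-4.37), Txnip (-2.86) and Mlxipl (-1.70) fell and 5 rose, among them Esrra (1.25), Egln3 (1.23) and Prkaa1 (1.16).

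HIF targets outside glycolysis were tested in 19 of 20 cases, with 3 higher and 8 lower in iPS cells relative to MEFs, 57.9% beside 35.8%. Among those that fell were Lox (not above background in iPS cells), Adm (-4.97), P4ha1 (-2.76), P4ha2 (-2.08) and Plod2 (-2.08), of which several serve the collagen matrix or the vasculature. In iPS over ES 3 rose (Bnip3, 2.42, Ankrd37, 1.94, and Mxi1, 1.59) and 5 fell, including Ddit4 (-1.79) and Lox (not above background in iPS cells). In MEFs over ES 8 rose, among them Lox (5.93), Adm (4.36), P4ha1 (2.78), Bnip3 (2.15) and Car12 (1.57), and Ddit4 fell. Ddit4 has a bright probe (mean log2 intensity 15.7), in the range where median centring moved the members most, and its centred ratios are not given. Of this list 42.1% was called in iPS over ES and 47.4% in MEF over ES, beside 21% and 27.6% of all genes. The fibroblast markers fell in iPS cells too, 12 of 12 relative to MEFs and 8 of 12 relative to ES cells, and their part in this list was not tested.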

How the data were processed

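Total RNA was labelled with the Agilent Quick Amp kit and read on 4 arrays, all on 1 slide and in 1 scan, so position and group cannot be told apart, and dyes were not swapped. The labels call the arrays of a group biological replicates without saying whether cultures were separate, so p-values measure only the spread between these samples. Per the file headers, the authors read the spots with Agilent Feature Extraction 10.5.1.1, and the deposited mean and local background intensity values are not normalized. The log10 ratio (red over green) in the deposited files had been dye-normalized by that software, per the file headers, and equals the series' value table (largest difference 0). Probe coordinates are mm8.

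Mean intensities were background-corrected with normexp (offset 50), fitted on unmarked spots, and normalized by loess (span 0.3) in limma 3.58.1 (R 4.3.3). Spots that the scanner software marks as outliers were dropped, except those marked only because their local background differed from the others (23 member spot values), a choice made after seeing the marks. A probe was tested when well above background in at least 1 RNA on all of its arrays. A gene stood by its tested probe with the highest mean intensity; all members, other probes whose call differed, and up to 6 called genes per further list and comparison were named by rule. lmFit and eBayes were run over all 4 arrays with 1 coefficient a group, adjusted over all genes, and checked on simulated data. The number of arrays limits the precision. Members and lists were chosen with earlier results of these data known. Replicate numbers were tried as a block; deviations of same-numbered arrays correlated at -0.12 across genes. Bounds ("at least") compare normalized channel means with the lowest signal above background and are open to dye bias; where such a bound exceeded the fitted fold, no fold is given. A gene counted in the list of HIF targets is not reported here.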

Additional observations from a re-analysis of the deposited data

Results flagged for a closer look

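Eno2 was singled out by a rule: called in opposite directions against the same ES RNA, with the difference between the groups called as well. It stood at -2.12 and -2.17 on the iPS arrays, against 1.10 and 1.22 on the MEF arrays, with group means of -2.14 (iPS over ES) and 1.16 (MEF over ES). The difference of -3.30 (limma adjusted p = 5e-08, n = 2 arrays each) was part of that rule, so its p adds no further support.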

How the results depend on the processing

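Over 12 planned and 2 added settings (spots with a background mark left out, and a crossed replicate block, both chosen after seeing the data), 1397 of 1500 values of members kept their direction and side of the threshold, 46 lost a call, 28 gained one and 29 changed sign. All 29 were ratios under 2-fold with loess and the settings of the report. Aquantile scaling, both other filters on dim probes and both replicate blocks kept 108 values each, and had little room to change them. Median centring kept 68 and normexp over all spots 77, so the pooled count hides how unlike the settings were. Aldoa, Ldha, Pfkl and Rpia had no value without the background-marked spots. With normexp fitted over all spots, 0 members rose and 0 fell in MEF over ES by limma (15 of 36 at an unadjusted p under 0.05), and 89 genes rose and 72 fell in all. That fit put 1 member higher in iPS over MEF, with 1129 genes higher and 1336 lower, and it turned Taldo1 in MEF over ES (-0.112) and Gpi1 (0.296), Aldoc (-0.042) and Pgd (0.048) in iPS over MEF. On the array of MEF replicate 1, 14 spots had a local background above 500, up to 694663. The scanner's log ratio gave 3264 genes higher in iPS over ES, 4240 lower in MEF over ES and 5173 higher in iPS over MEF. It turned Taldo1 in MEF over ES (-0.008) and Gapdh (-0.018), Pdha1 (0.117) and Pgd (0.027) in iPS over MEF. Median centring gave 14 members higher and 5 lower in iPS over ES, 16 higher in MEF over ES, and among all genes 2924 higher in iPS over ES, 3994 higher and 1733 lower in MEF over ES. The share of rises among calls was 62.9% (iPS over ES) and 69.7% (MEF over ES), beside 43.2% and 50% with loess. It turned Aldoc (0.031), Gapdh (0.762), Pkm2 (0.156), Ldhb (0.089), Pdk2 (0.014), Pdhb (0.105) and G6pdx (0.184) in iPS over ES, Hk2 (0.021), Aldoc (0.023), Gapdh (0.752), Pgam2 (0.071), Eno1 (0.066) and Tkt (0.114) in MEF over ES, and Pfkm (-0.015) in iPS over MEF. The mean over probes left 4 members higher in iPS over MEF and turned Pkm2 (0.072) and Ldha (-0.106) in iPS over ES and Aldoc in MEF over ES (0.143) and iPS over MEF (-0.30). Without background-marked spots 4 members rose in MEF over ES, with no value for Aldoa, Ldha and Rpia, which rose in the main setting. Aldoc, then standing by another probe, turned in MEF over ES (0.532) and iPS over MEF (-0.67). Beyond what these constructions show, the cause was not tested.

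Leaving out 1 array at a time left 6 to 7 members higher in MEF over ES and 8 to 10 lower in iPS over MEF; Gapdh in iPS over MEF ran from -0.015 to 0.073, without iPS replicate 2 and 1. With a group at 1 array, the lone array is assumed to vary like the other group. The replicate block gave the same calls for all 36 members in the 3 comparisons (7 higher and 9 lower in iPS over MEF), as did crossed numbers (3214 genes higher and 3578 lower), and the labels state no pairing. Aquantile scaling changes only brightness and so no ratio. Dim probes limit Hk1, Pfkfb3 and Slc2a3 as described with their probes.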
